A study of Mus musculus with 9 samples.

Results

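Ankyrins, spectrins and the adhesion molecules that ankyrins hold at the axon initial segment were followed in ribosome-bound RNA from parvalbumin interneurons (PV INs) of the hippocampal CA3/CA2 region. The list was drawn up by name with earlier results of these data known, although its rule holds no measured value. It has 9 genes: the ankyrins Ank1, Ank2 and Ank3, the spectrins Sptan1, Sptbn1 and Sptbn4, and the adhesion molecules Nfasc, Nrcam and L1cam. They are 9 of 37620 gene identifiers with counts, and all 9 were among the 15069 genes that passed the filter on low counts (1 CPM, a count scaled to sequencing depth, or more in 1 or more samples). The mice of both groups were PV-Cre; Rpl22HA/HA, 2 months old at injection, so a Cre driven by the parvalbumin gene put the HA tag on the ribosomal protein Rpl22 of PV INs. Lentivirus injected into the dentate gyrus (DG) carried a non-targeting shRNA (shNT, 5 samples) or an shRNA against Ablim3, an actin-binding protein of mossy fiber terminals (shRNA, 4 samples), and CA2/CA3 tissue was taken 2 weeks later. Each sample pooled tissue of 6 mice (3 males and 3 females) before anti-HA immunoprecipitation, so n counts pools. The comparison of shRNA with shNT asks which ribosome-bound RNAs of PV INs differ when Ablim3 is targeted in the DG neurons that contact them. Any cell in which the parvalbumin promoter is or has been active can carry the tag, and the labels name the tissue only as brain tissue.

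Spectrins are long rods that pair an alpha and a beta chain into tetramers and, tied together by short actin filaments, line the inside of the neuronal membrane with a periodic lattice. Ankyrins fasten that lattice to channels and adhesion molecules. At the axon initial segment, where action potentials start, and at the nodes of Ranvier, ankyrin-G (Ank3) and beta-IV spectrin (Sptbn4) hold sodium and potassium channels together with neurofascin and NrCAM. Fast-spiking PV INs are also known for ankyrin-R (Ank1), which holds potassium channels at their soma.

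The adhesion molecules of the list belong to the L1 family and bind ankyrins through a short motif in their cytoplasmic tail that holds a tyrosine. Its coding letters are shown because this stretch is what joins the adhesion molecules to the ankyrins described below. Each line gives 60 bases of coding sequence of the mm9 genome, read 5′ to 3′ on the gene's own strand, and the capitals mark the 15 bases that code for phenylalanine, isoleucine, glycine, glutamine and tyrosine.
L1cam, chrX:71100440-71100499, minus strand: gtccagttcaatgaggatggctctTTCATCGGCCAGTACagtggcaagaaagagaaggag
Nfasc, chr1:134467063-134467122, minus strand: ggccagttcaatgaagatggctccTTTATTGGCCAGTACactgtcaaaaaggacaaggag
Nrcam, chr12:45699449-45699508, plus strand: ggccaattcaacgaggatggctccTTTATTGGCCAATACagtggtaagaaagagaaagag
Each stretch lies in 1 coding exon close to the end of the gene's longest coding sequence, where the motif begins at codon 1227 of 1260 in L1cam, 1208 of 1241 in Nfasc and 1228 of 1261 in Nrcam. The 60 bases were identical at 50 positions (83.3%) between L1cam and Nfasc, at 51 (85%) between L1cam and Nrcam and at 49 (81.7%) between Nfasc and Nrcam. Coding sequences of 7 of 22737 genes searched (0.0308%) held such a run of 5 codons. Counts per gene do not separate transcripts with and without an exon, so the values below are sums over all forms of a gene.

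Counts assigned to genes were 19680352 to 34578837 per sample in shNT and 18281719 to 30421093 in shRNA. Ablim3 itself was at 16.9 ± 5.16 CPM in shNT (SD, n = 5) and 18.5 ± 3.42 CPM in shRNA (SD, n = 4), with log2 fold change 0.13, SE 0.23, FDR 0.701. The shRNA was delivered to DG neurons, so its level in RNA of CA3/CA2 PV INs does not measure the knockdown. All 12 PV IN markers were detected in every sample, with Pvalb at 998 ± 287 CPM in shNT (SD, n = 5) and 526 ± 163 CPM in shRNA (SD, n = 4), with log2 fold change -0.92, SE 0.28, FDR 0.0678, and all 12 had a negative log2 fold change. A pair of samples stood apart: shNT 2 had 18.6% of its uniquely aligned reads outside exons, against 9.76 to 11.3% in the other shNT samples, and shRNA 4 had 27.2%, against 12.4 to 19.8% in the other shRNA samples. Astrocyte markers summed to 5624 CPM in shRNA 4 and to 1074 to 1671 CPM in the other 8 samples. In bulk samples such as these, fewer cells of a type and less RNA per cell cannot be told apart.

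Fitted levels of 5 of the 6 ankyrin and spectrin genes were 2.31- to 7.74-fold higher in shRNA than in shNT, that of Ank1 was 1.43-fold lower, and those of the adhesion molecules were 1.14- to 1.51-fold higher. Of these differences only that of Sptbn4 passed the test: Sptbn4 rose in shRNA, the one gene of the 9 called at a false discovery rate (FDR, Benjamini-Hochberg over all genes tested) under 0.05 with at least 1.5-fold change in edgeR's quasi-likelihood test. No gene of the 9 was called lower, and Ank1 alone had a negative log2 fold change. Over all genes tested 1.74% were called higher and 0.0133% lower, the shares beside which the 1 call among 9 genes stands. At FDR under 0.1 with the same fold, 5 of the 9 were higher (Ank2, Ank3, Sptan1, Sptbn1 and Sptbn4), where the share of all genes was 12.7%, and none was lower, against 4.26%. At an unadjusted p under 0.05, 5 of the 9 were higher (20.7% of all genes) and 1, Ank1, was lower (13.4%). A fold of at least 1.5 upward was reached by 6 of the 9, against 24.8% of all genes, and downward by none, against 5.75%. A positive log2 fold change was found for 8 of the 9, against 57.9% of all genes. The 9 genes are long, and 88.3% of genes with at least 9.917 kb of exon had a positive value. Of genes with 8.117 to 9.914 kb, 83.3% did. The median log2 fold change of the 9 was 1.21, and that of all genes tested was 0.11. Every shRNA sample exceeded every shNT sample for 3 of the 9 (Ank3, Sptbn1 and Sptbn4), against 8.97% of all genes.

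**Figure D1:**
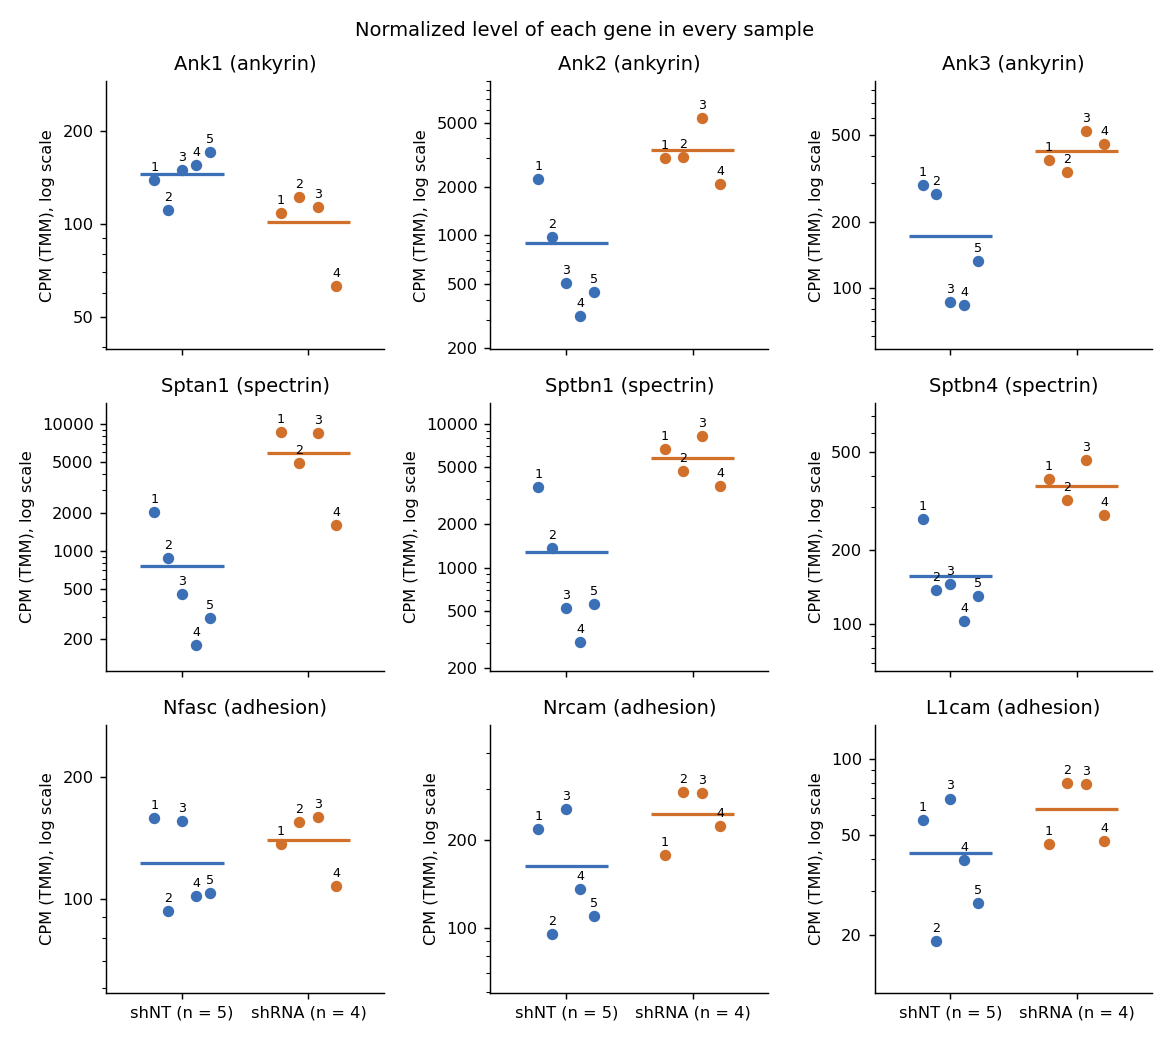
CPM (scaled by trimmed mean of M values, TMM, on a log axis that differs between panels) of each of the 9 genes in the 5 shNT and 4 shRNA samples. Points are samples, marked with their replicate number, and bars are group means. In the panels of Ank2, Sptan1, Sptbn1 and Sptbn4, shNT 1 is the highest shNT sample and lies near the lowest shRNA sample, and in the panel of Ank1 all 4 shRNA samples lie below the shNT mean.

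Among the ankyrins, Ank2 and Ank3 had higher means in shRNA and Ank1 a lower one. Ank2 was at 2249, 974, 509.8, 315 and 448 CPM in shNT 1 to 5 and at 3014, 3056, 5313 and 2079 CPM in shRNA 1 to 4. This gene (chr3:126624525-127111949, minus strand) codes for ankyrin-B, which serves along the axon shaft. It was 3.74-fold higher by the fit (log2 fold change 1.90, SE 0.53, FDR 0.0642), and only 3 of 4 shRNA samples lay above the highest shNT sample, shNT 1. Group means were 899 ± 794 CPM in shNT (SD, n = 5) and 3365 ± 1375 CPM in shRNA (SD, n = 4), with exact permutation p = 0.0238 (two-sided), where the smallest p that 5 and 4 samples can give is 0.00794.

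Ank3 was at 295, 268, 85.8, 83.4 and 132 CPM in shNT 1 to 5 and at 384, 340.0, 519.9 and 454 CPM in shRNA 1 to 4. The lowest shRNA sample, shRNA 2, exceeded the highest shNT sample, and the groups did not overlap. Ank3 (chr10:68996970-69490184, plus strand) codes for ankyrin-G, the organizer of the initial segment, and its mean was 173 ± 101 CPM in shNT (SD, n = 5) and 425 ± 79.1 CPM in shRNA (SD, n = 4), with log2 fold change 1.30, SE 0.38, FDR 0.0655, exact permutation p = 0.0238. Both Ank2 and Ank3 missed the FDR threshold with all 9 samples.

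Ank1 was at 139, 111, 150.0, 156 and 171 CPM in shNT 1 to 5 and at 109, 122, 113 and 62.9 CPM in shRNA 1 to 4. The shRNA samples were low, shRNA 4 most of all, but shNT 2 lay among them and the groups overlapped. Of its exon bases 6.37% are shared with Gm15816 on the other strand, and the counting did not use strand. Ank1 (chr8:24085316-24260969, plus strand) codes for ankyrin-R, and its mean was 145 ± 22.3 CPM in shNT (SD, n = 5) and 102 ± 26.5 CPM in shRNA (SD, n = 4), with log2 fold change -0.51, SE 0.20, FDR 0.107, unadjusted p = 0.0275, exact permutation p = 0.0317. A lower level in shRNA did not pass the FDR threshold here, nor in edgeR's likelihood ratio test (FDR 0.0780) or DESeq2 (adjusted p = 0.0522). With limma voom and sample quality weights it passed that threshold (log2 fold change -0.41, FDR 0.0129) but at under 1.5-fold, so it was not called. The 12 PV IN markers stood at a median log2 fold change of -0.35, with sums of 9460.2 to 14507 CPM in shNT and 4598 to 11004 CPM in shRNA, lowest in shRNA 4 as for Ank1. The part of these markers in the Ank1 difference was not tested.

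Sptan1 and Sptbn1 had the largest fold changes of the list. Sptan1 was at 2011, 877, 453, 180.1 and 295 CPM in shNT 1 to 5 and at 8631, 4901, 8511 and 1589 CPM in shRNA 1 to 4. From the lowest sample to the highest this was a 47.9-fold range, and in shRNA 1 the gene took 0.863% of normalized counts. Sptan1 (chr2:29821080-29886971, plus strand) codes for alpha-II spectrin, the common partner of the beta chains in neurons. Its means were 763 ± 746 CPM in shNT (SD, n = 5) and 5908 ± 3359 CPM in shRNA (SD, n = 4), and shRNA 4 lay below shNT 1, so the groups overlapped. The fit gave 7.74-fold (log2 fold change 2.95, SE 0.70, FDR 0.0517, exact permutation p = 0.0238).

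Sptbn1 was at 3631, 1370.5, 522, 305 and 559.6 CPM in shNT 1 to 5 and at 6715, 4702, 8275 and 3695 CPM in shRNA 1 to 4. All 4 shRNA samples were above all 5 shNT samples, although shRNA 4 and shNT 1 lay close together. Sptbn1 (chr11:29999395-30168175, minus strand) codes for beta-II spectrin, the main beta chain of the axon shaft lattice. Its means were 1278 ± 1376 CPM in shNT (SD, n = 5) and 5847 ± 2049 CPM in shRNA (SD, n = 4), with log2 fold change 2.19, SE 0.64, FDR 0.0655, exact permutation p = 0.0159. Within shNT alone it spanned 11.9-fold and Sptan1 11.2-fold, and both missed the FDR threshold although their fold changes were larger than that of Sptbn4.

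Sptbn4 was at 269, 138, 145, 103 and 131 CPM in shNT 1 to 5 and at 390.2, 319, 467 and 277 CPM in shRNA 1 to 4. Every shRNA sample exceeded every shNT sample, again with shRNA 4 next to shNT 1. Sptbn4 (chr7:28141402-28232705, minus strand) codes for beta-IV spectrin, the beta chain of initial segments and nodes. It rose 2.31-fold, from 157 ± 64.3 CPM in shNT (SD, n = 5) to 363 ± 83.4 CPM in shRNA (SD, n = 4), with log2 fold change 1.21, SE 0.27, FDR 0.0497 in edgeR's quasi-likelihood test and exact permutation p = 0.0159. The FDR is just under the threshold: the call was lost when any 1 of shNT 2 to 5 or shRNA 1 to 3 was left out (FDR 0.0514 to 0.169) and held without shNT 1 (FDR 0.0125) or shRNA 4 (FDR 0.0491). Of the exon bases of Sptbn4, 1.38% are shared with Gm20479 on the same strand.

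The size of these differences moved with single samples, in both directions. Without shRNA 3 the log2 fold changes of Ank2 (1.52, FDR 0.123) and Sptbn4 (0.98, FDR 0.121) were the lowest of the fits that leave out 1 sample. Without shNT 4 those of Ank3 (1.05), Sptan1 (2.64) and Sptbn1 (1.88) were the lowest, each with FDR 0.155. No gene of the 9 was called in either fit. Without shNT 1 the log2 fold changes were 2.58 for Ank2, 1.58 for Ank3, 3.71 for Sptan1, 3.08 for Sptbn1 and 1.49 for Sptbn4, and all 5 passed the FDR threshold (0.0125 to 0.0386). In that fit 6.68% of all genes were called higher. Without both shNT 2 and shRNA 4, the samples that stood apart above, Sptan1 (3.34, FDR 0.0308) and Sptbn4 (1.29, FDR 0.0348) were called, where 4.75% of all genes were. In edgeR's likelihood ratio test and in DESeq2, Ank2, Ank3, Sptan1, Sptbn1 and Sptbn4 were called higher, beside 11.2% and 10.1% of all genes, and none was called lower, beside 3.6% and 5.6%.

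Ankyrins and spectrins are made by many cell types, so markers of the other cells of the tissue were read beside them. No listed marker was at 0 in any sample. Positive log2 fold changes were found for 9 of 10 CA3 and CA2 pyramidal neuron markers (median 0.66), 7 of 7 DG granule cell markers (0.96), 10 of 10 astrocyte markers (1.39), 10 of 10 oligodendrocyte markers (0.74), 6 of 6 oligodendrocyte precursor markers (0.99), 6 of 10 microglia markers (0.21) and 8 of 10 endothelial cell markers (0.46). The fit that called Sptbn4 also called 2 pyramidal neuron, 1 DG granule cell and 3 oligodendrocyte precursor markers higher, where 1.74% of all genes were. It called none of the astrocyte, oligodendrocyte, microglia or endothelial cell markers. The likelihood ratio test called higher 9 astrocyte, 4 oligodendrocyte, 6 oligodendrocyte precursor, 6 pyramidal neuron, 3 DG granule cell and 2 microglia markers. DESeq2 called 4, 3, 5, 6, 3 and 1 of these, in that order. Shares of all genes were 11.2% and 10.1%. Without both shNT 2 and shRNA 4, 7 oligodendrocyte, 4 oligodendrocyte precursor, 4 pyramidal neuron and 1 DG granule cell markers were called, beside 4.75% of all genes. Pyramidal neuron markers summed to 317 to 654 CPM in shNT and 763 to 961 CPM in shRNA, DG granule cell markers to 75.0 to 141 CPM in shNT and 173 to 239 CPM in shRNA and oligodendrocyte precursor markers to 47.2 to 82.6 CPM in shNT and 94.2 to 133 CPM in shRNA, with no overlap of the groups. Astrocyte markers summed to 1074 to 1525 CPM in shNT and 1417 to 5624 CPM in shRNA, microglia markers to 79.9 to 149 CPM in shNT and 123 to 141 CPM in shRNA and endothelial cell markers to 162 to 405 CPM in shNT and 114 to 992 CPM in shRNA, with overlap. The sample with the most astrocyte markers, shRNA 4, had the lowest Ank2, Sptan1, Sptbn1 and Sptbn4 levels of its group, while its Ank3 level lay above those of shRNA 1 and shRNA 2. The part of these cells in the levels of the 9 genes was not tested.

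The L1 family adhesion molecules had the smallest positive log2 fold changes of the list, and none of the 3 was called or reached an unadjusted p under 0.05 in the reported fit of all 9 samples. Nfasc was at 158, 93.3, 156, 101 and 103 CPM in shNT 1 to 5 and at 137, 155, 159 and 107 CPM in shRNA 1 to 4. Neurofascin (Nfasc, chr1:134461268-134638374, minus strand) has a neuronal form at initial segments and nodes and a glial form at paranodes, which counts per gene add up. Both groups covered almost the same range, with 122 ± 31.9 CPM in shNT (SD, n = 5) and 139 ± 23.5 CPM in shRNA (SD, n = 4), with log2 fold change 0.19, SE 0.20, FDR 0.522, exact permutation p = 0.349. The oligodendrocyte markers summed to 799 to 2434 CPM in shNT and 1503 to 3089 CPM in shRNA, highest in shNT 2 and shRNA 4 of their groups, the samples in which Nfasc was lowest in each group. Their part in the Nfasc level was not tested.

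Nrcam was at 219, 95.3, 257, 135 and 109.5 CPM in shNT 1 to 5 and at 177, 294, 291 and 223 CPM in shRNA 1 to 4. NrCAM (chr12:45429872-45702951, plus strand) stands with neurofascin at nodes and initial segments, and its groups overlapped, shNT 3 lying above shRNA 1 and shRNA 4. The means were 163 ± 70.9 CPM in shNT (SD, n = 5) and 246 ± 56.4 CPM in shRNA (SD, n = 4), with log2 fold change 0.59, SE 0.30, FDR 0.179, exact permutation p = 0.119. L1cam was at 57.0, 18.9, 69.5, 39.6 and 26.9 CPM in shNT 1 to 5 and at 45.9, 80.2, 79.5 and 47.0 CPM in shRNA 1 to 4. L1CAM (chrX:71099117-71141444, minus strand), a molecule of axon growth and bundling, had overlapping groups as well and shares 1.36% of its exon bases with Arhgap4. Its means were 42.4 ± 20.9 CPM in shNT (SD, n = 5) and 63.2 ± 19.3 CPM in shRNA (SD, n = 4), with log2 fold change 0.57, SE 0.35, FDR 0.254, exact permutation p = 0.190. In shNT all 3 adhesion molecules were lowest in shNT 2. With limma voom and sample quality weights, Nrcam (log2 fold change 0.86, FDR 0.00749) and L1cam (0.87, FDR 0.0128) were called higher too, where 15.3% of all genes were, and none of the 9 lower, where 4.1% were.

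The balance within each family was then measured inside each sample, since a ratio of 2 genes does not depend on how libraries are scaled. Counts were divided by exon length, and each gene was given as a share of its family's sum. Of the ankyrin sum, Ank1 took 6.09, 9.13, 22.7, 30.5 and 24.7% in shNT 1 to 5 and 3.66, 4.14, 2.29 and 2.77% in shRNA 1 to 4. Every shRNA share was below every shNT share, with means of 18.6 ± 10.5% in shNT and 3.21 ± 0.837% in shRNA (SD). Ank2 took 60.1 ± 11.5% in shNT and 79.3 ± 5.35% in shRNA, and Ank3 21.3 ± 5.01% in shNT and 17.5 ± 5.46% in shRNA. Ank1 RNA thus made up less of the ankyrin RNA sum in each shRNA sample than in any shNT sample. By the fit Ank2 was 3.74-fold higher in shRNA and Ank1 1.43-fold lower, neither of them called. As a log2 ratio per kb of exon, Ank1 over Ank2 was -1.92 ± 1.26 in shNT and -4.66 ± 0.40 in shRNA (difference -2.74, exact permutation p = 0.0159, adjusted p = 0.1 over 9 ratios). For Ank1 over Ank3 the log2 ratio was -0.41 ± 1.04 in shNT and -2.44 ± 0.59 in shRNA (difference -2.03, exact permutation p = 0.0238, adjusted p = 0.1).

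Of the 3 spectrins, Sptbn4 took 6.71, 8.39, 17.7, 24.2 and 18.9% in shNT 1 to 5 and 3.40, 4.48, 3.79 and 7.51% in shRNA 1 to 4. The share in shRNA 4 was above that in shNT 1, and the other shRNA shares were below all shNT shares, although the level of Sptbn4 itself rose. Sptan1 took 41.5 ± 5.10% in shNT and 54.6 ± 12.2% in shRNA, and Sptbn1 43.4 ± 5.88% in shNT and 40.6 ± 10.3% in shRNA. The log2 ratio of Sptan1 over Sptbn4 was 1.6 ± 0.92 in shNT and 3.55 ± 0.87 in shRNA (difference 1.94, exact permutation p = 0.0397, adjusted p = 0.1), and that of Sptbn1 over Sptbn4 was 1.67 ± 0.96 in shNT and 3.12 ± 0.19 in shRNA (difference 1.46, exact permutation p = 0.0476, adjusted p = 0.1). Sptan1 over Sptbn1, whose proteins pair with each other, had a log2 ratio of -0.06 ± 0.28 in shNT and 0.43 ± 0.70 in shRNA (difference 0.49, exact permutation p = 0.206, adjusted p = 0.232). Without shRNA 4 that ratio differed by 0.83 (exact permutation p = 0.0179), and without shRNA 1 by 0.30 (exact permutation p = 0.446).

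In the adhesion family the shares of all 3 genes overlapped between the groups, Nrcam taking 52.0 ± 2.69% in shNT and 57.3 ± 3.79% in shRNA, Nfasc 33 ± 4.91% in shNT and 26.3 ± 4.01% in shRNA and L1cam 14.9 ± 2.55% in shNT and 16.4 ± 1.61% in shRNA. The log2 ratio of Nrcam over L1cam was 1.81 ± 0.21 in shNT and 1.81 ± 0.18 in shRNA (difference -0.01, exact permutation p = 0.960, adjusted p = 0.960), that of Nfasc over Nrcam -0.67 ± 0.29 in shNT and -1.13 ± 0.30 in shRNA (difference -0.46, exact permutation p = 0.0556, adjusted p = 0.1), and that of Nfasc over L1cam 1.15 ± 0.46 in shNT and 0.68 ± 0.28 in shRNA (difference -0.47, exact permutation p = 0.135, adjusted p = 0.173). Ank2 over Ank3 differed by 0.71 (exact permutation p = 0.0873). Of the 9 ratios 4 had an exact p under 0.05, and none was under 0.05 after Benjamini-Hochberg adjustment over the 9.

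**Figure D2:**
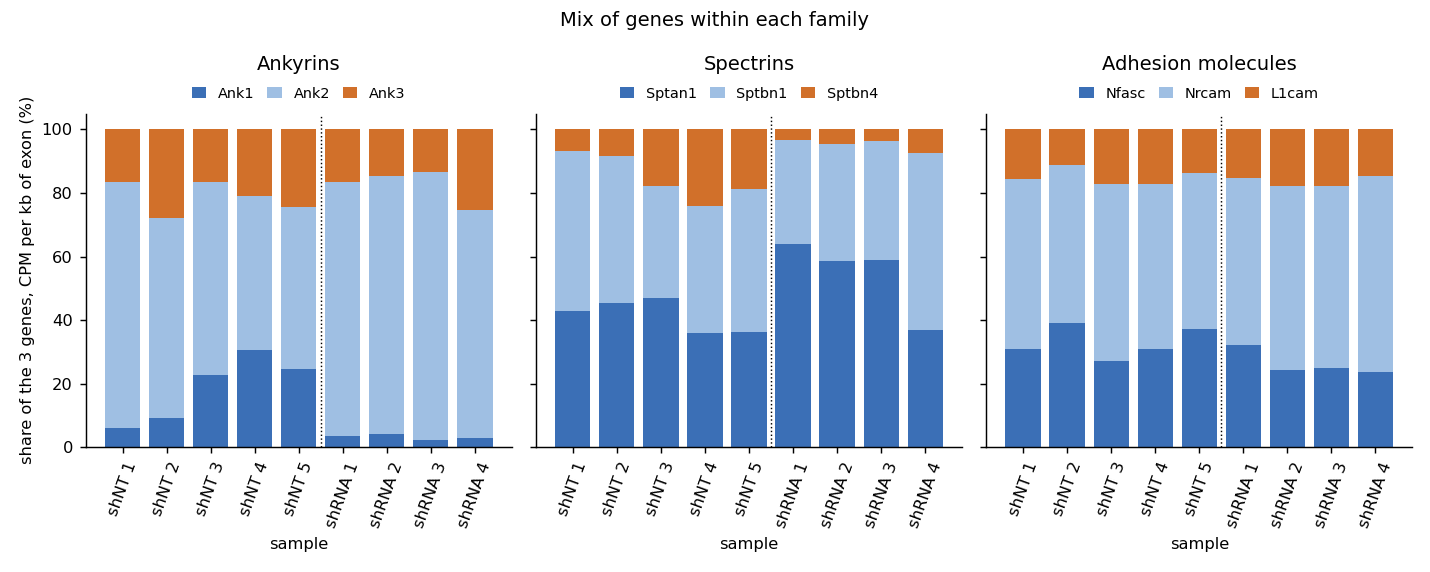
Share of each gene in the summed CPM per kb of exon of its family (%), in each sample, with shNT samples left and shRNA samples right of the dotted line in each panel. The share of Ank1 is 6.09 to 30.5% in shNT and 2.29 to 4.14% in shRNA, while the shares of each adhesion molecule overlap between the groups.

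Levels of different genes were compared as CPM per kb of exon (RPKM), and their order differed between the groups. In shNT, Sptbn1 (73.0 ± 78.7 RPKM, SD, n = 5), Sptan1 (66.8 ± 65.3) and Ank2 (52.2 ± 46.1) led, with SDs close to their means. Within samples, Sptbn1 was above Sptan1 in 4 of 5 and Sptan1 above Ank2 in 3 of 5. Ank2 was above Nrcam in 4 of 5 samples. Next came Nrcam (19.7 ± 8.54 RPKM), Ank3 (16.3 ± 9.54), Sptbn4 (16.2 ± 6.61), Nfasc (11.8 ± 3.08) and Ank1 (10.7 ± 1.65). Nrcam was above Ank3 in 3 of 5 samples, Ank3 above Sptbn4 in 2, Sptbn4 above Nfasc in 4 and Nfasc above Ank1 in 3. L1cam (5.77 ± 2.85) was last, below Ank1 in 5 of 5 samples. In shRNA, Sptan1 (517 ± 294 RPKM, SD, n = 4) was above Sptbn1 (334 ± 117) in 3 of 4 samples, and Sptbn1 was above Ank2 (195 ± 79.7) in 4 of 4. Ank3 (40.0 ± 7.45 RPKM) was above Sptbn4 (37.3 ± 8.56) in 2 of 4 samples, and Sptbn4 was above Nrcam (29.7 ± 6.80) in 3 of 4 samples. Nfasc (13.4 ± 2.26 RPKM), L1cam (8.60 ± 2.63) and Ank1 (7.51 ± 1.96) closed the order, so Ank1 went from above L1cam in every shNT sample to below it in 3 of 4 shRNA samples. Added up, the 9 genes took 0.142 to 0.903% of normalized counts in shNT and 0.853 to 2.37% in shRNA, the ranges meeting at shNT 1 and shRNA 4.

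The 9 genes are long, and length moved with the comparison over all genes. Their median exon length was 10.6 kb, against 3.62 kb for all genes tested. The median log2 fold change of all genes went from -0.27 in the shortest of 6 bins (up to 2.26 kb of exon) to 0.57 in the longest (from 9.917 kb). In that longest bin 88.3% of genes had a positive value, beside 8 of these 9 genes, not all of which are that long. With the smooth trend on exon length removed from each sample, the log2 fold changes were 1.45 for Ank2, 0.88 for Ank3, 2.65 for Sptan1, 1.77 for Sptbn1 and 0.82 for Sptbn4. Those of the adhesion molecules were -0.24 for Nfasc, 0.25 for Nrcam and 0.27 for L1cam, so Nfasc changed sign, and Ank1 was at -1.07. No gene of the 9 passed the FDR threshold in that fit (the FDR of Sptbn4 was 0.0990), and no gene of all 15069 did. With the outside-exon share of each sample added to the fit, Ank1 was at -0.21, Ank2 at 2.06, Ank3 at 1.13, Sptan1 at 3.14, Sptbn1 at 2.29 and Sptbn4 at 1.35, and none was called (the FDR of Sptbn4 was 0.0785). The adhesion molecules then stood at 0.43 for Nfasc (unadjusted p = 0.0392), 0.92 for Nrcam (0.0119) and 1.09 for L1cam (0.00629), with FDR 0.0997 to 0.150.

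The samples carry 2 sets of names, 31 (shNT 1 to 3 and shRNA 1 to 3) and 32 (shNT 4 and 5 and shRNA 4), and the labels do not say what the sets stand for. Within the larger set, 3 against 3, Ank2 was at log2 fold change 1.58, Ank3 at 0.90, Sptan1 at 2.69, Sptbn1 at 1.8, Sptbn4 at 1.06 and Ank1 at -0.25. None was called there (FDR 0.230 to 0.854). The smaller set holds 1 shRNA sample and gives no test of its own. With the set as a block in the fit of all 9 samples, Ank2, Sptan1, Sptbn1 and Sptbn4 were called higher (FDR 0.0195 to 0.0491), where 2.5% of all genes were.

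**Figure D3:**
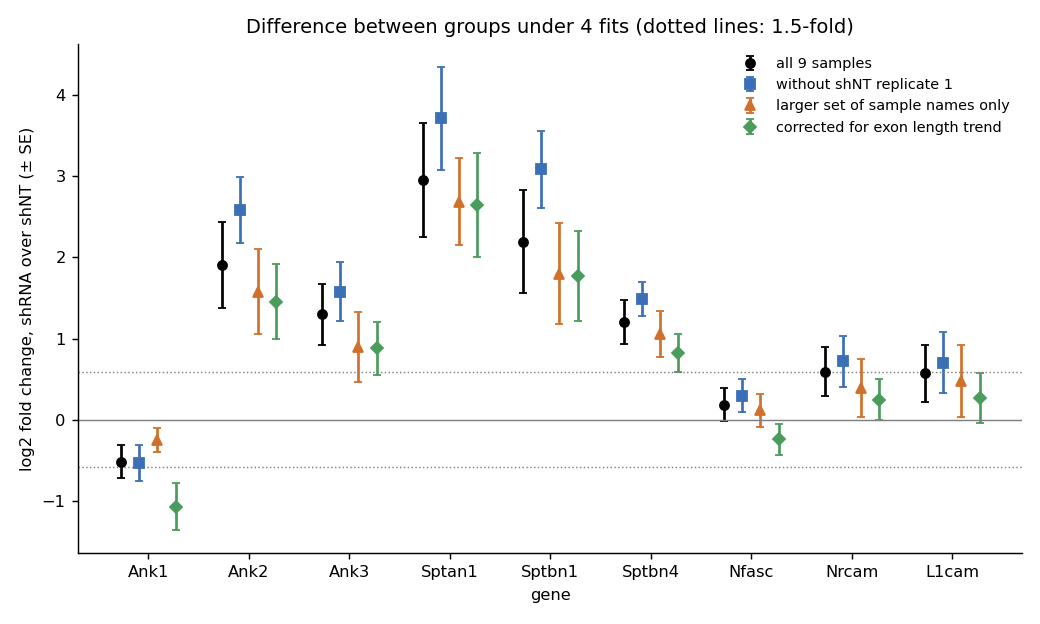
log2 fold change (shRNA over shNT) of each gene with its standard error, from edgeR fits of all 9 samples, without shNT 1, of the larger set of sample names alone, and with the exon length trend removed. Dotted lines mark 1.5-fold in either direction. Values of Ank2, Ank3 and the spectrins stay above zero in all 4 fits, those of Ank1 stay below it, and Nfasc lies on both sides.

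Other genes of the spectrin skeleton and of the initial segment, 54 in 7 lists, were read from the same fit. Of the 52 that were tested, 2 rose (Scn2a and Lgi1), none was called lower by edgeR's quasi-likelihood test (2 had an unadjusted p under 0.05 with a negative fold change, 1 was called lower by the likelihood ratio test, against 3.6% of all genes, and 2 by DESeq2, against 5.6%), and 36 had a positive log2 fold change, with a median of 0.21. Background shares for the calls and signs are the 1.74%, 0.0133% and 57.9% given above. For an unadjusted p under 0.05, here and in each list below, they are 20.7% higher and 13.4% lower. Beside these, 15 of the 52 were higher and 2 lower at that p. The tests that made more calls among the 9 genes made more here too: 10 of the 52 were called higher by the likelihood ratio test, where 11.2% of all genes were, and 8 by DESeq2, where 10.1% were. The counts of each list by these tests stand beside the same shares. Scn2a and Lgi1 were still called without shNT 2 (FDR 0.0426 each) but not without shRNA 4 (FDR 0.0656 and 0.0611). No gene at all was called without shNT 3, shNT 4, shNT 5, shRNA 1 or shRNA 3, in the larger set of sample names, with either length trend removed, or with the outside-exon share in the fit.

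Sptb, the erythrocyte beta chain and known partner of ankyrin-R, was at 152 ± 146 CPM in shNT (SD, n = 5) and 639 ± 190.0 CPM in shRNA (SD, n = 4), with log2 fold change 2.08, SE 0.55, FDR 0.0621. All its shRNA samples lay above all shNT samples, and it missed the FDR threshold here but was called by the likelihood ratio test and DESeq2. Sptbn5 did not reach 1 CPM in any sample and was not tested. Of the 8 proteins that join spectrin to actin none was called (2 had an unadjusted p under 0.05, both higher, and 2 each were called higher by the likelihood ratio test and DESeq2), with a median of 0.28 between Dmtn (dematin, -0.18) and Add3 (gamma-adducin, 0.98, FDR 0.0621).

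At the membrane, Lgi1, a secreted protein that regulates potassium channels of the initial segment, rose from 37.7 ± 8.66 CPM in shNT (SD, n = 5) to 70.6 ± 5.96 CPM in shRNA (SD, n = 4; log2 fold change 0.91, SE 0.17, FDR 0.0403). It was the one gene called in its list of 7, drawn up for other adhesion molecules but holding this secreted protein too. The list had a median of 0.28 and reached down to Cntnap2 (-0.02). At an unadjusted p under 0.05, 1 was higher and 0 lower, and the likelihood ratio test and DESeq2 each called 1 higher. Scn2a, a sodium channel alpha subunit of initial segments, rose from 51.0 ± 15.9 to 107 ± 10.9 CPM (log2 fold change 1.07, SE 0.22, FDR 0.0424), the one gene called of 11 channels. These channels had both signs, 6 with a positive and 5 with a negative log2 fold change. At an unadjusted p under 0.05, 4 were higher and 2 lower. The likelihood ratio test called 2 higher and 1 lower, and DESeq2 1 higher and 2 lower. Every shRNA sample was above every shNT sample for 2 channels (8.97% of all genes) and below for 2 (6.68%). Scn2a is also a channel of pyramidal neurons, whose markers are given above, and their part in its level was not tested.

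No gene was called among the 3 fibroblast growth factors that bind sodium channels (1 with an unadjusted p under 0.05, none called by the likelihood ratio test or DESeq2), where Fgf14 was at 0.45 and Fgf12 at -0.48. Of 8 microtubule proteins of the initial segment, none was called (2 had an unadjusted p under 0.05, both higher, and 1 was called by the likelihood ratio test and none by DESeq2). Macf1, which links microtubules to actin, was at 269.7 ± 246 CPM in shNT (SD, n = 5) and 761 ± 187 CPM in shRNA (SD, n = 4), with log2 fold change 1.5, SE 0.53, FDR 0.0878, and Mapre3, a microtubule end-binding protein, at log2 fold change -0.46. Among 13 scaffolds, matrix proteins and enzymes none was called (3 had an unadjusted p under 0.05, and 2 each were called higher by the likelihood ratio test and DESeq2). Synpo, an actin-associated protein of the cisternal organelle, led them at 21.9 ± 8.56 CPM in shNT (SD, n = 5) and 46.4 ± 6.95 CPM in shRNA (SD, n = 4), with log2 fold change 1.08, SE 0.26, FDR 0.0547, without overlap between groups, and Csnk2b, a subunit of a kinase that acts on initial segment proteins, was lowest at -0.47.

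**Figure D4:**
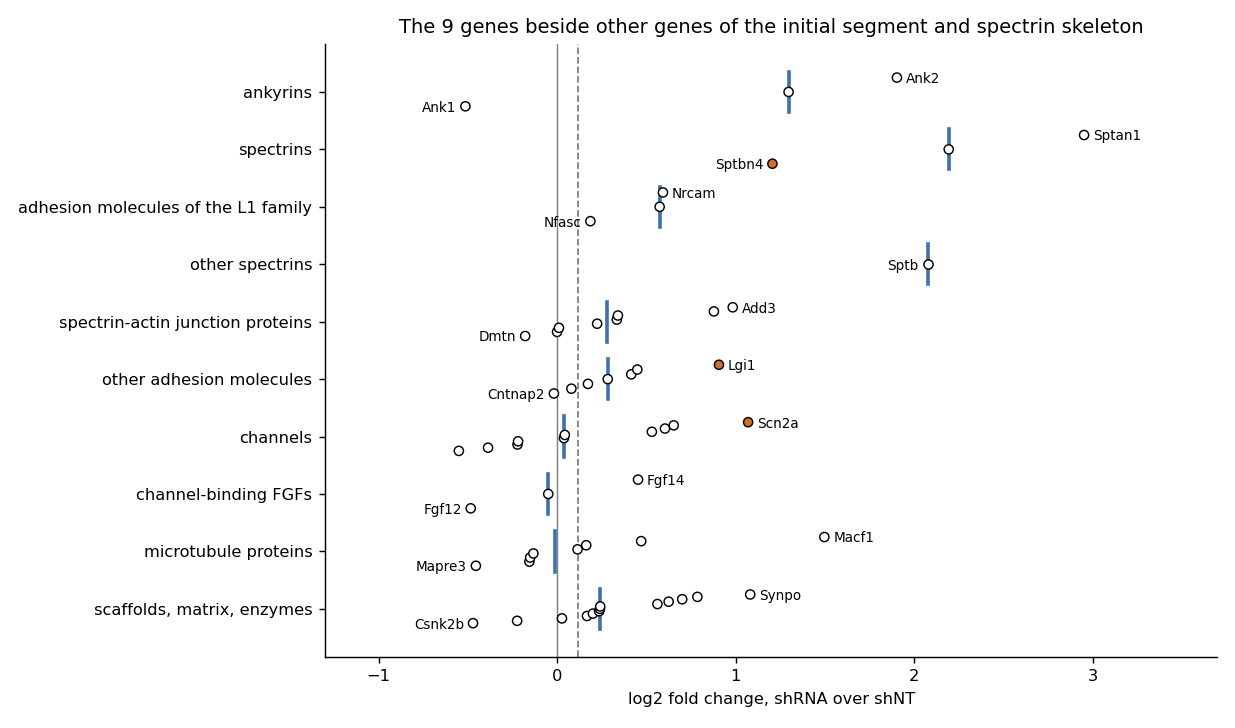
log2 fold change (shRNA over shNT) of the 9 genes by family and of other genes of the initial segment and spectrin skeleton by list. Points are genes, filled where called at FDR under 0.05 and 1.5-fold, blue bars are medians of the points shown, and the dashed line is the median of all genes tested (0.11). Sptan1, Sptbn1 and Sptb lie farthest to the right, and the channels spread on both sides of zero.

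For each gene, the 2 genes outside the list with the most similar log2 CPM over the 9 samples were found by Pearson's r among 9486 genes with a mean of at least 10 CPM. These values are descriptions, because the 9 samples share their group difference. Sptbn1 was most like another spectrin, Sptb (r = 0.997), and Ank2 most like Phf3 (0.991). Macf1 came first for Ank3 (0.983), followed by Gm15800 (0.968). Lcp1 was among those of Sptan1 (0.993), and Sptbn4 was most like Zfp185 (0.989) and St5 (0.981). For the rest, Ank1 paired with Ube2l3 (0.995) and Rwdd4a (0.995), Nfasc with Dennd4b (0.989) and Pcnxl2 (0.986), Nrcam with Xpo7 (0.996) and Exoc6b (0.996), and L1cam with Pitpnm1 (0.996) and Ubap2l (0.996). High values were common: genes with r over 0.95 numbered from 15 for Ank3 to 239 for Nrcam, 272 for L1cam and 465 for Ank1.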

How the data were processed

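Ribosome-bound RNA was immunoprecipitated with anti-HA beads, made into libraries with the SMARTer v4 kit and sequenced as 50-base reads. The authors aligned reads to mm9 with STAR and counted them per gene without strand with HTSeq 0.6.0, and the deposited values are raw counts. The annotation release they used is not given in the sources used here. Identifiers were matched to GENCODE vM1 (37205 of 37620), 3 of the 9 genes under older symbols (Spna2, Spnb2, Spnb4), and lengths, positions and coding sequence come from that annotation and the NCBIM37 genome. The 5 rows that name no gene were left out of library sizes. Among them, reads outside exons were 9.76 to 27.2% and ambiguous reads 1.36 to 1.78% of uniquely aligned reads, and multiple alignments were 8.24 to 14.4% of unique and multiple alignments together.

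The edgeR quasi-likelihood test (edgeR 4.0.16, R 4.3.3) with TMM scaling was fitted on the 15069 genes that reached 1 CPM in any sample, with condition as the only term. FDR is the Benjamini-Hochberg adjusted p over these genes, and calls needed FDR under 0.05 and 1.5-fold. DESeq2 1.42.0, limma 3.58.1 and other scalings, filters, blocks and left-out samples were alternatives. Single values were tested by exact two-sided permutation of log2 CPM (prior count 2) over the samples. P-values measure the spread between pools. The biological coefficient of variation was 0.303. In counts simulated from these samples, 79 of 200 genes changed 2-fold were called in the right direction, with 3 false calls among 14589 genes. No 2 samples were identical (36 pairs). Named beside the 9 genes were the highest and lowest gene by fold change of each list with a mean of at least 10 CPM, called genes, and the 2 genes most like each of the 9, and some that this rule picks are not reported here. The 9 genes and all lists were chosen with earlier results of these data known.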

Additional observations from a re-analysis of the deposited data

Results flagged for a closer look

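The level of Sptbn4 in shNT 1, 269 CPM, lay far from the other 4 shNT samples (103 to 145 CPM) by Dixon's test at the 95% level, and the call of Sptbn4 held without that sample. In shNT 2, 18.6% of uniquely aligned reads were outside exons (the other shNT samples 9.76 to 11.3%), and oligodendrocyte markers summed to 2434 CPM (799 to 1235 CPM in the others). In shRNA 4, summed markers stood above the other shRNA samples for astrocytes (5624 against 1417 to 1671 CPM), endothelial cells (992 against 114 to 202 CPM) and DG granule cells (239 against 173 to 185 CPM). These are 6 of 54 sets of values so examined, and chance alone gives about 2.7. The part of these markers in the levels of the 9 genes was not tested.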

How the results depend on the processing

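The count of genes called higher among the 9, 1 in the fit reported, was 5 with edgeR's likelihood ratio test, edgeR's exact test and DESeq2, 7 with limma voom and sample quality weights, 4 with name set as a block and 2 with no filter on low counts. It was 0 with scaling by library size only, by DESeq2 size factors in edgeR or by the upper quartile, with edgeR's filterByExpr, in the larger set of sample names alone, with the exon length trend or the gene length trend removed, and with reads outside exons (%) as a covariate. Leaving out 1 sample gave 0 to 5 (5 without shNT 1, 2 without shRNA 4, 0 otherwise), and leaving out shNT 2 and shRNA 4 together, chosen after seeing the data, gave 2. No gene of the 9 was called lower in any of these 25 settings. Over all genes, 262 called higher and 2 lower became 0 to 2301 and 0 to 844, with 1007 and 410 without shNT 1. Of 225 recomputed log2 fold changes of the 9 genes, 2 changed sign, both of Nfasc (-0.24 with the exon length trend removed and -0.15 with the gene length trend removed). Another 29 gained a call and 16 lost one. All 16 were of Sptbn4, so the one call of the reported fit was lost in 16 of the 25 settings. The count of within-family ratios with an exact p under 0.05, 4 as reported, was 4 with a prior count of 0.5 and with no division by exon length and 2 to 6 when 1 sample was left out. It was 0 in the larger set of sample names and in 4 pairs by replicate number, designs whose smallest exact p is over 0.05. The Nrcam over L1cam ratio, near 0 as reported, moved between -0.0933 and 0.0782 when 1 sample was left out and was 0.00226 by pairs.

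Same-numbered samples of the groups share a number and a set of names, and the labels name no other link. Correlations of their deviations from the group means were -0.267, -0.641, 0.486 and -0.181, and 1 of 4 correlated best with its own number. With the replicate block 1 gene of the 9 was called higher, Sptan1 (log2 fold change 2.98, FDR 0.0394), in place of Sptbn4 (FDR 0.163), and 29 genes of all were. Depth was not the limit for the 9 genes, whose lowest count in any sample was 412 reads (L1cam).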
